A study of Rattus norvegicus with 6 samples.

Results

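miR-320, miR-484, miR-423, miR-191a and miR-425 are miRNAs that are often found in extracellular vesicles and body fluids, and several of them are used as reference RNAs there. They were read here from 6 small RNA libraries of RSC96, an established rat Schwann cell line. All cells had 48 h of treatment, 3 libraries in high glucose and 3 in low glucose, the latter being the controls. No genotype, transgene or other agent is named for either group. The series title concerns exosomes, which are small secreted vesicles, but no label tells whether the RNA was from vesicles or from whole cells. The source and tissue fields name nerve, while the extraction text names retinas. Nothing says that the libraries of a group came from separate cultures, so the p-values speak only of the variation among the libraries, part of which may be technical. The members were chosen by name: all sequences listed under the hairpins rno-mir-320, rno-mir-484, rno-mir-423, rno-mir-191a and rno-mir-425, which are 5 of the 752 distinct hairpins in the data. They gave 9 of the 932 mature arms and 511 of the 9522 distinct sequences. An arm is the side of the hairpin a sequence comes from, 5p or 3p, and 7 of the 9 arms had enough counts to be tested.

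A miRNA is usually cut from a long transcript in successive steps. The nuclear enzyme Drosha frees a hairpin, the cytoplasmic enzyme Dicer removes its loop, and 1 strand of the resulting duplex is loaded into Argonaute. The precursors of miR-320 and miR-484 are known exceptions: each hairpin begins at the transcription start, carries a 5′ cap and reaches Dicer without Drosha, and the capped 5p strand is not loaded efficiently. miR-423, miR-191 and miR-425 are made by the canonical route. miR-191 and miR-425 are made from one transcript. Bases 2 to 8 of the loaded strand, the seed, find the targets, and the 3′ end is often trimmed or extended by terminal nucleotidyl transferases, which gives sequence variants called isomiRs.

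The hairpins of miR-484, miR-423, miR-191a and miR-425 are shown with their most abundant exact arms in capitals. The position of the main arm differs between the 2 routes among the members. Other hairpins were not compared in this way. All sequences are written 5′ to 3′ as the deposited tables give them, with T for U.
mir-484 hairpin: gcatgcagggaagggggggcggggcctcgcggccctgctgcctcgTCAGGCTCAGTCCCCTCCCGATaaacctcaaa
mir-423 hairpin: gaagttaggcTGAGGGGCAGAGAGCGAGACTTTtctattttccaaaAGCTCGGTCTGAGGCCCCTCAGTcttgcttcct
mir-191a hairpin: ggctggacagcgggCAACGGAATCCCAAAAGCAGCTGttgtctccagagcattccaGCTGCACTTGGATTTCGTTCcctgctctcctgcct
mir-425 hairpin: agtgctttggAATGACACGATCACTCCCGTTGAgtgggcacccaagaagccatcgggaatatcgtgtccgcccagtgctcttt
The main sequence lay in the 3p arm of both capped hairpins, at bases 48 to 69 of the miR-320 hairpin and 46 to 67 of the miR-484 hairpin, counted from its 5′ end. It lay in the 5p arm of the canonical ones, at bases 11 to 33 of miR-423, 15 to 37 of miR-191a and 11 to 33 of miR-425. The hairpins were 77 to 91 nt long. The miR-484 hairpin had the highest GC content, at 68.8%, and the miR-423 hairpin the lowest, at 51.9%.

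Hairpins identical to these 4 are in the RefSeq table for the rat assembly GRCr8. Mir484 is at chr10:1394905-1394981 on the minus strand, between the protein-coding genes Nde1 and Marf1. Mir423 is at chr10:62412272-62412350 on the minus strand, within the gene Nsrp1. Mir191 and Mir425 are neighbours within the gene Dalrd3, at chr8:118142627-118142717 and chr8:118143084-118143166 on the plus strand. The seeds are shown in capitals in the main sequence of each tested arm, since the seed decides whether members can share targets.
miR-320-3p: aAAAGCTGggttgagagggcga
miR-484-3p: tCAGGCTCagtcccctcccgat
miR-423-5p: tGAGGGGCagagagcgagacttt
miR-423-3p: aGCTCGGTctgaggcccctcagt
miR-191a-5p: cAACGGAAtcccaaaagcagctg
miR-191a-3p: gCTGCACTtggatttcgttc
miR-425-5p: aATGACACgatcactcccgttga
All 7 seeds differ. The most abundant exact sequences of miR-484-3p, miR-191a-5p and miR-425-5p are identical to the mature sequences in RefSeq.

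Library totals ranged from 963706 to 1354456 counts in high glucose and from 114615 to 148143 in low glucose, with group means 9.31-fold apart. Glucose and depth therefore cannot be told apart by group, and counts drawn down to 114615 per library are given beside results that rest on few counts. In edgeR's quasi-likelihood test with Benjamini-Hochberg adjustment, 190 of 297 tested arms (64.0%) differed between the groups, 123 (41.4%) higher and 67 (22.6%) lower in high glucose. Of markers of Schwann cells and injured nerve, 4 of 6 were found, with a summed level of 147321 to 220076 CPM in high and 426242 to 462789 CPM in low glucose. miR-21-5p made up most of that sum, at 173417 and 420781 CPM on average, and was lower in high glucose, while miR-221-3p and miR-222-3p, the other tested members, were 1.87-fold and 8.29-fold higher. CPM, counts per 1e6 counts of the library, were scaled by the TMM method. The defining miR-338 and miR-138 were not listed in any library. The retinal list summed to 30.5 to 116 CPM in high and 54.0 to 105 CPM in low glucose, with miR-96 and miR-124 not listed. The red cell list (miR-451, miR-144, miR-486) summed to 687 to 914 CPM in high and 3247 to 6230 CPM in low glucose, and its 2 tested members were lower in high glucose. The neuronal list summed to 16697 to 21927 and 8006 to 9039 CPM, with its defining miR-124 not listed. Of its 4 tested members miR-128-3p and miR-129-5p were higher, miR-218a-5p was 4.96-fold lower and miR-9a-5p was not called. The leukocyte list summed to 36.2 to 240 and 105 to 140 CPM. The part of these other cell types in the members' results was not tested.

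Of the 7 tested member arms, 4 were higher in high glucose and 0 lower, against 41.4% and 22.6% of all tested arms. In the same 4 arms every high glucose library was above every low glucose library, which held for 45.8% of all tested arms, and 25.9% separated the other way. miR-484-3p, miR-423-5p, miR-423-3p and miR-191a-3p rose, and miR-320-3p, miR-191a-5p and miR-425-5p did not pass the test. The members that rose thus include 1 capped and 2 canonical hairpins. Of these arms, miR-484-3p had 0, 5 and 0 counts in low glucose and miR-191a-3p 2, 0 and 0. They passed the count filter only through the high glucose libraries, so a rise was almost the only call open to them. In bulk RNA a change in the number of cells or vesicles and a change in RNA per cell or vesicle cannot be told apart. Members together made up 2.88%, 3.995% and 3.37% of the counts in high glucose and 2.73%, 2.36% and 2.91% in low glucose, and these ranges overlap.

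miR-320-3p, from the capped hairpin, was the most abundant member in low glucose and did not differ detectably between the groups. It had 10477, 17253 and 18746 counts in high glucose and 1827, 1849 and 1807 in low glucose. These were 10845, 14091 and 15339 CPM and 12721, 12391 and 16184 CPM, so the groups overlap. The means were 13425 ± 2320 and 13766 ± 2101 CPM (SD, n = 3 each), with a log2 fold change of -0.04 (SE 0.19, 95% interval -0.47 to 0.39, adjusted p = 0.877, edgeR). It ranked 18 among tested arms in high and 11 in low glucose. With upper quartile scaling in place of TMM, the same comparison gave -0.61 with an adjusted p of 0.0189, lower in high glucose. Over all tested arms 62.0% were called with that scaling. It moves the median of the log2 fold changes over all arms by -0.56, from 0.68 to 0.12. Relative to the median of all tested arms under TMM, the difference of miR-320-3p was -0.72. The other arm, miR-320-5p, was nearly absent, with 0, 0 and 6 counts in high and 0, 2 and 0 in low glucose, too few to test.

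miR-484-3p, the other capped member, was called higher in high glucose, on few low glucose counts. Its counts were 176, 440 and 261 in high glucose and 0, 5 and 0 in low glucose. Every high glucose library was above every low glucose library, and 2 of the low glucose libraries listed none. The levels were 182, 359 and 214 CPM against 0, 33.5 and 0, with means of 252 ± 94.5 and 11.2 ± 19.3 CPM (SD, n = 3 each). The log2 fold change was 4.34 (SE 0.79, 95% interval 2.53 to 6.16, adjusted p = 0.00204, edgeR), and it was 3.76 with upper quartile scaling. The ratio of pooled counts was 20.8, with an exact 95% binomial interval of 8.87 to 64.2 that covers counting error only. At the mean level of high glucose, the low glucose libraries would hold 28.1 to 37.6 counts each. Drawn down to equal depth, the libraries held 20, 27 and 18 counts against 0, 2 and 0, so the difference was also present there. Sequences read once are not listed, which lowers a rare miRNA more in a shallow library. No sequence of the 5p arm was listed in any library.

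miR-423 was higher in high glucose in both arms. miR-423-5p had 11706, 27775 and 20356 counts in high glucose and 1008, 1060 and 1159 in low glucose. In CPM these were 12117, 22685 and 16657 against 7019, 7104 and 10381, with no overlap between the groups. The means were 17153 ± 5301 and 8168 ± 1917 CPM (SD, n = 3 each), a 2.10-fold difference (log2 1.07, SE 0.26, adjusted p = 0.00796, edgeR). This call is lost with upper quartile scaling, where the log2 fold change was 0.51 and the adjusted p 0.112. Against the median of all tested arms miR-423-5p was 0.39 higher on the log2 scale. miR-423-3p, the minor arm, had 1391, 1551 and 2038 counts in high and 73, 74 and 61 in low glucose. Its levels of 1440, 1267 and 1668 CPM all lay above those of 508, 496 and 546 CPM in low glucose. The fold change was 2.82 (log2 1.497, SE 0.19, adjusted p = 0.000396, edgeR), and the log2 value was 0.91 with an adjusted p of 0.0033 under upper quartile scaling. The share of the 3p arm in all miR-423 counts was 10.6%, 5.29% and 9.10% in high and 6.75%, 6.53% and 5% in low glucose. These shares overlap (exact two-sided permutation p = 0.3), so a shift between the arms was not detectable.

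miR-191a and miR-425, the pair within Dalrd3, had main arms that did not differ detectably. miR-191a-5p had 3632, 3472 and 3828 counts in high glucose and 433, 456 and 290 in low glucose, or 3760, 2836 and 3132 CPM against 3015, 3056 and 2597 CPM. The log2 fold change was 0.17 (SE 0.17, 95% interval -0.22 to 0.56, adjusted p = 0.431, edgeR). miR-425-5p had 203, 364 and 279 counts in high and 34, 50 and 21 in low glucose, or 210, 297 and 228 CPM against 237, 335 and 188 CPM. Its log2 fold change was -0.06 (SE 0.28, 95% interval -0.71 to 0.60, adjusted p = 0.877, edgeR). Both pairs of groups overlap, and the intervals leave room for changes of the sizes given by their bounds. Counts of miR-191a-5p per count of miR-425-5p were 17.9, 9.54 and 13.7 in high and 12.7, 9.12 and 13.8 in low glucose, so the ratio within the pair also overlapped.

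The minor arms of this pair were rare. miR-191a-3p had 141, 214 and 147 counts in high glucose and 2, 0 and 0 in low glucose, with no overlap. Its level was 147 ± 27.3 CPM with high and 4.64 ± 8.04 CPM with low glucose, as mean ± SD of 3 libraries. The log2 fold change was 4.85 (SE 0.72, adjusted p = 0.000948, edgeR). The ratio of pooled counts was 29.8, with an exact 95% binomial interval of 8.19 to 246 for counting error. At equal depth the counts were 11, 11 and 3 against 2, 0 and 0, which still do not overlap but were too few for the test. As a share of all miR-191a counts the 3p arm made up 3.74%, 5.81% and 3.70% in high and 0.460%, 0% and 0% in low glucose. At equal depth the mean shares were 2.34% and 0.161%, so the difference was smaller there. All miR-191a sequences carry the tables' repeat mark, although each is listed under 1 hairpin here with its full count, and RefSeq places Mir191 within a second miRNA gene, Mir3555. miR-425-3p had 0, 5 and 2 counts in high glucose and none listed in low glucose, which at that depth shows no difference.

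**Figure D1:**
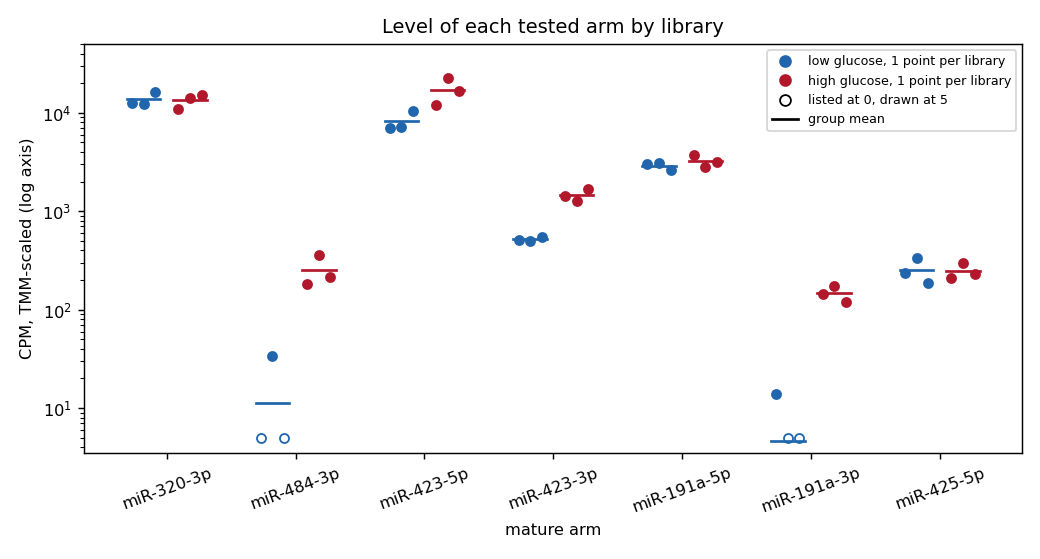
Level of the 7 tested member arms in each library (CPM, TMM-scaled, log axis), with low glucose in blue, high glucose in red, group means as lines and libraries at 0 as open points drawn at 5. miR-320-3p, miR-191a-5p and miR-425-5p overlap between the groups, while both miR-423 arms, miR-484-3p and miR-191a-3p separate fully.

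The main sequences are 20 to 23 nt long, so levels in CPM can be set side by side with little effect of length, though ligation and amplification can still differ by sequence. In low glucose miR-320-3p was above miR-423-5p, then came miR-191a-5p, miR-423-3p and miR-425-5p, each level without overlap with the next. miR-484-3p and miR-191a-3p came last and overlapped each other. In high glucose miR-423-5p at 12117 to 22685 CPM overlapped miR-320-3p at 10845 to 15339 CPM, and both were above miR-191a-5p and miR-423-3p. miR-484-3p at 182 to 359 CPM overlapped miR-425-5p at 210 to 297 CPM there, and miR-191a-3p at 120 to 175 CPM was below both. miR-484-3p thus stood beside miR-425-5p in high glucose and below it in low glucose.

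**Figure D2:**
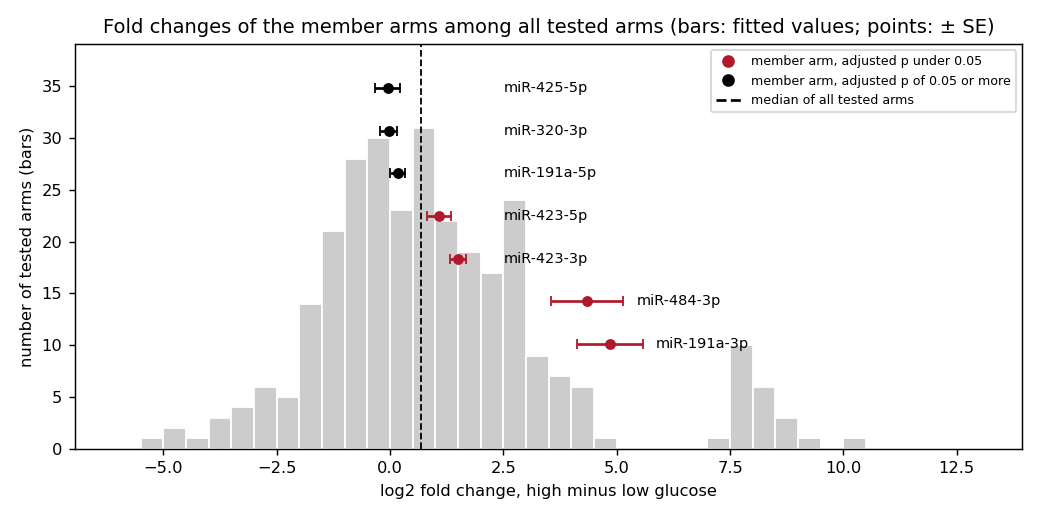
Log2 fold change (high minus low glucose, ± SE) of the 7 member arms as points, at arbitrary heights, over a histogram of all 297 tested arms, with the median of 0.68 dashed. miR-320-3p, miR-191a-5p and miR-425-5p lie below the median and the 4 arms that passed the test above it, under TMM scaling. Bars above 7 are fitted values of arms listed at 0 in all low glucose libraries, which depend on the prior count.

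Within a library the balance between the 2 routes can be given without any scaling between libraries. Counts of the capped hairpins miR-320 and miR-484 per count of the canonical miR-423, miR-191a and miR-425 were 0.624, 0.530 and 0.713 in high glucose and 1.18, 1.13 and 1.18 in low glucose. The ratio was lower in every high glucose library, with means of 0.622 ± 0.0917 and 1.16 ± 0.0276 (SD, n = 3 each). The capped counts came to 11054, 13840 and 14037 per 1e6 library counts in high and 14768, 12528 and 15766 in low glucose, which overlap. The canonical counts came to 17716, 26111 and 19676 per 1e6 in high and 12529, 11070 and 13358 in low glucose, which do not. Nearly all capped counts were miR-320-3p and most canonical ones miR-423-5p, and the ratio of miR-423-5p to miR-320-3p was 1.12, 1.61 and 1.09 against 0.552, 0.573 and 0.641. The contrast between the routes is therefore mainly that between these 2 miRNAs. It does not hold hairpin by hairpin: the capped miR-484 rose with miR-423, and the canonical main arms of miR-191a and miR-425 did not pass the test, as miR-320-3p did not. Splicing-made hairpins, which also bypass Drosha, were too rare to test: miR-877-3p had 25, 38 and 4 counts and miR-702-3p 0, 0 and 17 in high glucose, and neither was listed in low glucose. 

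The sequence variants of miR-423-5p differed between the groups in length. Forms that share the 5′ end and the seed are shown with the bases beyond position 21 in capitals.
miR-423-5p 18 nt: tgaggggcagagagcgag
miR-423-5p 19 nt: tgaggggcagagagcgaga
miR-423-5p 21 nt: tgaggggcagagagcgagact
miR-423-5p 22 nt: tgaggggcagagagcgagactT
miR-423-5p 23 nt: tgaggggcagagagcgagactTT
miR-423-5p 24 nt: tgaggggcagagagcgagactTTT
The 24 nt form is the mature sequence in RefSeq, and all of these match the hairpin. The 23 nt form had 6436, 16206 and 10886 counts in high glucose and 317, 321 and 339 in low glucose, and the 21 nt form had 1882, 4014 and 3579 and 374, 405 and 478. In high glucose the 23 nt form was the larger in every library, and in low glucose the 21 nt form was. Their ratio was 3.42, 4.04 and 3.04 against 0.848, 0.793 and 0.706 (exact two-sided permutation p = 0.1, the smallest that 3 against 3 libraries can give). The 23 nt form held 55.6% ± 2.49 of the arm in high and 30.3% ± 1.10 in low glucose, and the 21 nt form 16.04% ± 1.57 and 38.9% ± 2.14 (SD, n = 3 each). The mean length of the arm was 22.53 and 21.85 nt, and at equal depth 22.54 and 21.87 nt.

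Tested as single sequences over the whole table, the longer forms of miR-423-5p rose and the 21 nt form did not pass. Of all 1541 tested sequences 52.6% were called, 34.8% higher and 17.8% lower in high glucose, and 40.6% had all high glucose libraries above all low glucose ones. The log2 fold change was 2.42 for the 23 nt form (SE 0.29, adjusted p = 0.000179, edgeR), 2.08 for the 24 nt form and 1.67 for the 22 nt form, and 0.22 for the 21 nt form (adjusted p = 0.482). The 18 nt form fell by 1.79 (adjusted p = 0.047, edgeR), on 11, 11 and 23 counts in high and 11, 3 and 10 in low glucose, the only member sequence called lower. Its CPM overlap between the groups. A test of each sequence against the others of its arm (edgeR diffSpliceDGE) called 7.23% of 1452 sequences up and 9.99% down, and in miR-423-5p 1 of 19 up and 7 down. There the use of the 21 nt form changed by -1.29 on the log2 scale (adjusted p = 0.000752) and that of the 19 nt form by -2.04 (adjusted p = 0.000322). The rise in use of the 23 nt form, 0.91 (adjusted p = 0.02), was not called when any 1 low glucose library was left out (adjusted p 0.151 to 0.226).

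**Figure D3:**
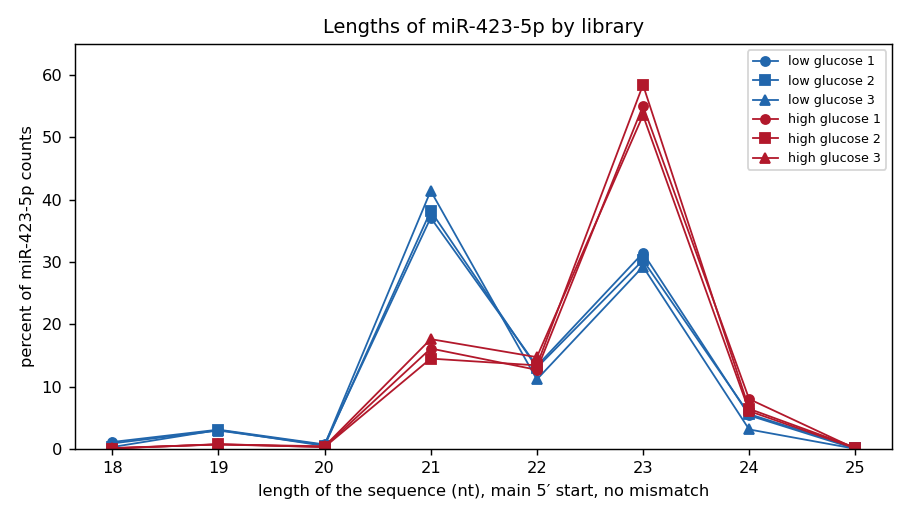
Share of miR-423-5p counts at each length from 18 to 25 nt (percent of the arm, exact sequences from the main 5′ start), 1 line per library. The 3 low glucose lines peak at 21 nt and the 3 high glucose lines at 23 nt.

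miR-320-3p had a larger share of uridine tails in every high glucose library, while its total did not differ detectably. The forms below share a 5′ end, and a capital marks a last base that does not match the hairpin, here always a uridine (T).
miR-320-3p 21 nt: aaaagctgggttgagagggcg
miR-320-3p 22 nt: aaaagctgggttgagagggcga
miR-320-3p 23 nt: aaaagctgggttgagagggcgaa
miR-320-3p 22 nt, end uridine: aaaagctgggttgagagggcgT
miR-320-3p 23 nt, end uridine: aaaagctgggttgagagggcgaT
miR-320-3p 24 nt, end uridine: aaaagctgggttgagagggcgaaT
miR-320-3p 25 nt, end uridine: aaaagctgggttgagagggcgaaaT
Sequences with such a uridine held 32.0%, 32.5% and 27.8% of the arm in high glucose and 19.3%, 20.3% and 18.1% in low glucose. Every high glucose library was above every low glucose library (means 30.7% ± 2.59 and 19.2% ± 1.09, SD, n = 3 each; exact two-sided permutation p = 0.1, Benjamini-Hochberg 0.229 over 32 tests of shares and lengths). At equal depth the means were 31.7% and 19.2%. Other mismatched last bases were rarer, with adenosine at 0.440% and 0.491%, cytidine at 1.33% and 1.42% and guanosine at 0.940% and 1.71% of the arm in high and low glucose. The exact 22 nt form, the most abundant, held 36.6% ± 2.98 in high and 46.5% ± 1.59 in low glucose.

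Among single sequences of miR-320-3p, 5 of 31 tested were higher and 0 lower, against 34.8% and 17.8% over the table, and each of the 5 carries a uridine in place of a hairpin base at or next to its end. The 23 nt end-uridine form had 928, 1962 and 1577 counts in high and 123, 120 and 99 in low glucose (log2 fold change 1.03, SE 0.25, adjusted p = 0.00693, edgeR). The 22 nt one had 833, 1708 and 1508 against 96, 99 and 99 (1.10, adjusted p = 0.0048, edgeR). The 25 nt one rose most, from 22, 20 and 11 counts to 358, 427 and 512 (1.961, SE 0.29, adjusted p = 0.000589, edgeR), and it alone was also called by its use within the arm (1.60, adjusted p = 0.00351, diffSpliceDGE). It was named after its values were seen. The 24 nt one was called (0.66, adjusted p = 0.0254, edgeR), but not with upper quartile scaling (adjusted p = 0.188), under which 52.4% of all sequences were called, or when 5 of the 6 libraries were left out in turn (0.0531 to 0.131). The exact 22 nt form had a log2 fold change of 0.06 (adjusted p = 0.816), the 23 nt form 0.35 (0.131) and the 21 nt form -0.29 (0.306). With upper quartile scaling the 21 nt form was called lower, at -0.60 (adjusted p = 0.0484).

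miR-191a-5p showed a like pattern with adenosine in place of uridine, again with no detectable change of its total. The adenosine and the exact forms are shown with the mismatched last base in capitals.
miR-191a-5p 22 nt: caacggaatcccaaaagcagct
miR-191a-5p 23 nt: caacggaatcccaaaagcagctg
miR-191a-5p 24 nt: caacggaatcccaaaagcagctgt
miR-191a-5p 24 nt, end adenosine: caacggaatcccaaaagcagctgA
Sequences that end in such an adenosine held 34.9%, 27.1% and 27.6% of the arm in high glucose and 17.3%, 14.9% and 16.2% in low glucose, with no overlap (exact two-sided permutation p = 0.1). The 24 nt form alone had 1127, 780 and 825 counts in high and 68, 59 and 43 in low glucose (log2 fold change 1.40, SE 0.30, adjusted p = 0.00429, edgeR). The exact 23 nt form had 531, 789 and 894 against 161, 176 and 80 (-0.24, adjusted p = 0.477, edgeR). Tailed counts per exact 23 nt count were 2.12, 0.989 and 0.923 in high and 0.422, 0.335 and 0.538 in low glucose, higher in every high glucose library and highest in replicate 1. The use of the 24 nt form within the arm did not pass the test (0.84, adjusted p = 0.0931, diffSpliceDGE).

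**Figure D4:**
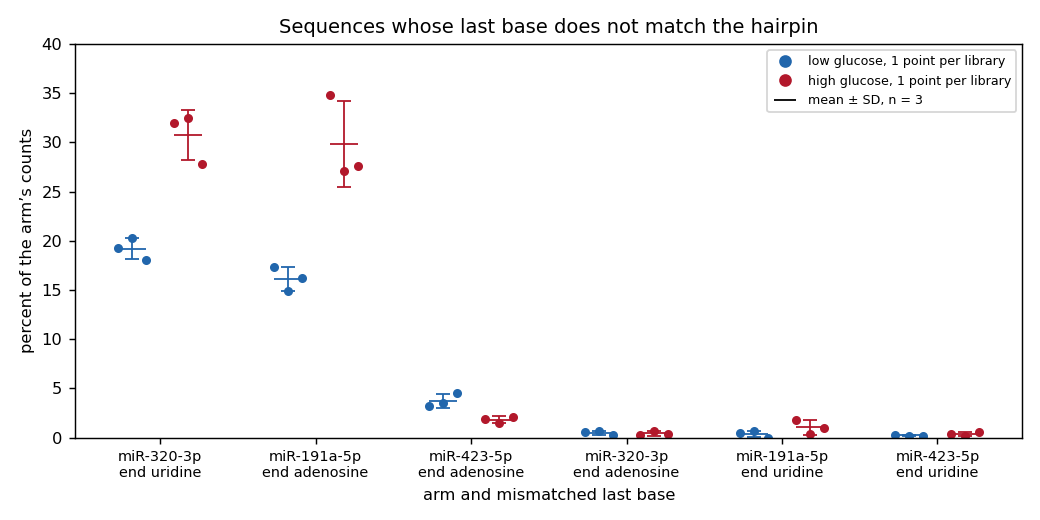
Share of each arm's counts in sequences whose last base does not match the hairpin (percent of the arm), by arm and base, 1 point per library with mean ± SD (n = 3). The shares of uridine on miR-320-3p and adenosine on miR-191a-5p were higher in all high glucose libraries, and that of adenosine on miR-423-5p was lower.

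Mismatched ends did not move in one direction over the members. On miR-423-5p an end adenosine held 1.89%, 1.48% and 2.13% in high and 3.17%, 3.49% and 4.57% in low glucose. That share was lower in every high glucose library. Its single forms differed: the 21 nt one held 0.547% and 1.81% of the arm in high and low glucose, with overlapping CPM. By use within the arm that form was called down (-1.66, adjusted p = 0.0125, diffSpliceDGE), as were 9.99% of all tested sequences. The 24 nt one had 92, 86 and 132 counts against 5, 5 and 3. It was called higher (log2 fold change 1.92, adjusted p = 0.00705, edgeR), as were 34.8% of all tested sequences. All mismatched sequences together held 37.1% ± 3.018 and 25.6% ± 1.48 of miR-320-3p, 38.8% ± 6.23 and 22.8% ± 2.00 of miR-191a-5p, and 5.18% ± 0.782 and 7.61% ± 1.72 of miR-423-5p in high and low glucose (SD, n = 3 each). A mismatched last base can be a base added after processing or a sequencing or alignment error, which these tables do not separate. Mismatches were a larger share in high glucose for miR-320-3p and miR-191a-5p and a smaller one for miR-423-5p. miR-484-3p had 47.7% ± 5.16 mismatched counts in high glucose, led by an end adenosine form with 20, 60 and 45 counts and by a form with an inserted adenosine with 26, 69 and 24. Neither was listed in low glucose, where 5 counts allow no comparison.

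The 5′ end sets the seed, and it varied little in most main arms. The main start held 100% of miR-484-3p, 98.6% ± 0.656 and 98.5% ± 0.630 of miR-423-5p, and 97.5% ± 2.46 and 96.8% ± 5.50 of miR-425-5p (high and low glucose, SD, n = 3). For miR-320-3p it held 96.8%, 92.4% and 94.1% in high and 96.7%, 96.6% and 96.7% in low glucose, which overlap. Of the main arms, miR-191a-5p had the lowest mean share at its main start in both groups, with 85.5%, 81.0% and 80.0% in high and 91.7%, 89.7% and 89.3% in low glucose, which do not overlap (exact two-sided permutation p = 0.1, Benjamini-Hochberg 0.229). The capped arms were at 92.4% or more in every library that listed them, and the order among members was not tested. The most abundant shifted sequence starts 1 base later, which changes the seed, here in capitals.
miR-191a-5p shifted: aACGGAATcccaaaagcagctg
miR-320-3p shifted: aAAGCTGGgttgagagggcga
The shifted miR-191a-5p had 235, 400 and 496 counts in high and 24, 27 and 18 in low glucose (log2 fold change 1.36, SE 0.29, adjusted p = 0.00389, edgeR), and its share was 6.47% to 12.96% against 5.54% to 6.21%. The use of this form within the arm did not pass the test (0.80, adjusted p = 0.197, diffSpliceDGE). At equal depth the main start of miR-191a-5p held 84.8% and 90.2%. The shifted miR-320-3p had 81, 315 and 291 counts against 17, 19 and 20 and did not pass the test (0.90, adjusted p = 0.125, edgeR).

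By level, sequences of the other arms were called in the direction of their totals or not at all. Of all tested sequences 34.8% were higher and 17.8% lower. In miR-423-3p 6 of 13 tested sequences were higher, among them the main 23 nt form with 558, 648 and 948 counts against 34, 33 and 33 (log2 fold change 1.75, adjusted p = 0.000355, edgeR). By use within the arm, the 17 nt form of miR-423-3p was called down and its 19 nt form up (-2.97, adjusted p = 0.00726, and 6.16, adjusted p = 0.0129, diffSpliceDGE). The 17 nt form had 19, 10 and 10 counts against 3, 3 and 8, and the 19 nt form 35, 64 and 68 against 0, 0 and 0. The 19 nt form was tested only through its high glucose counts. A rise in use was thus almost the only call open to it, and the size of 6.16 depends on the prior count. By use, 9.99% of all tested sequences were called down and 7.23% up. In miR-484-3p both tested sequences rose. The 22 nt main form had 88, 224 and 116 counts against 0, 3 and 0 (4.47, adjusted p = 0.00292, edgeR). Both tested sequences of miR-191a-3p rose, a 20 nt form with 40, 47 and 26 counts against none listed and a 21 nt form ending in a mismatched uridine with 57, 81 and 72 against 2, 0 and 0. The tested sequences of miR-484-3p and miR-191a-3p passed the count filter only through the high glucose libraries. So did the 18, 19, 20 and 21 nt forms of miR-423-3p, all called higher. A rise was almost the only call open to any of these. In miR-425-5p 0 of 5 tested sequences were called. Its 20 nt form had 79, 113 and 39 counts against 3, 5 and 5 (1.53, adjusted p = 0.0631, edgeR), and its 25 nt form varied within high glucose, at 15, 0 and 70 counts. In all, 90 of the 511 member sequences were tested, of which 25 were higher and 1 lower, against 34.8% and 17.8% of all tested sequences. The 25 include those of miR-484-3p and miR-191a-3p and these 4 forms of miR-423-3p. They also include a 22 nt form of miR-423-5p that starts 1 base later, with 0, 2 and 0 low glucose counts. An 18 nt form of miR-191a-5p, with 0, 7 and 2, is among them too. Both likewise passed the filter only through the high glucose libraries.

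**Figure D5:**
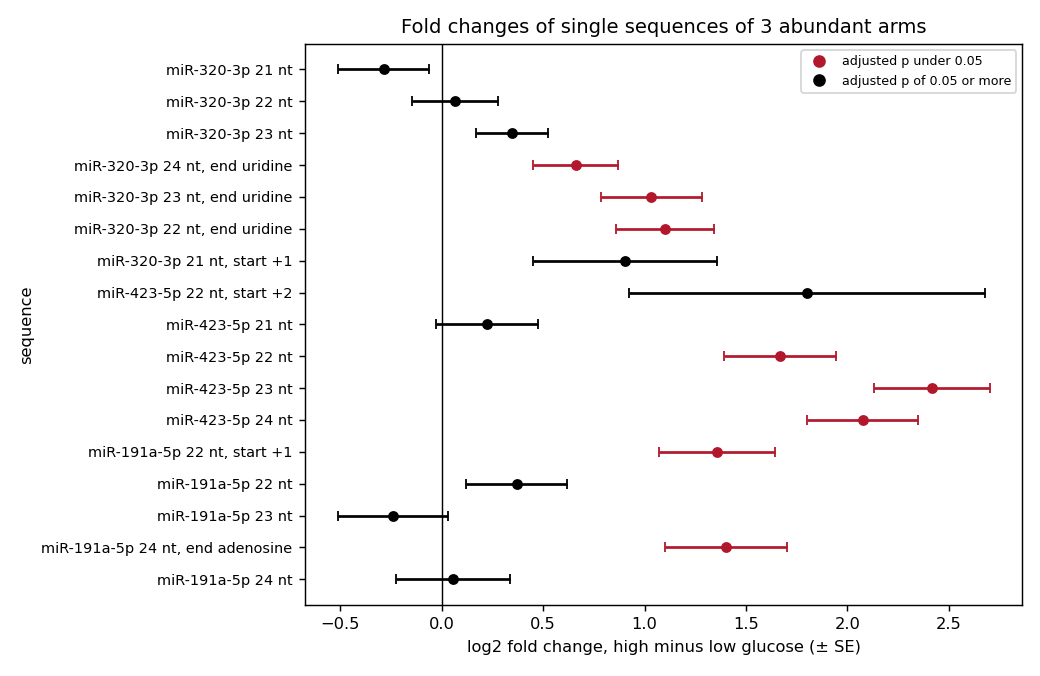
Log2 fold change (high minus low glucose, ± SE) of the named single sequences of miR-320-3p, miR-423-5p and miR-191a-5p from the fit over all 1541 tested sequences, with calls at an adjusted p under 0.05 in red. The end uridine forms of miR-320-3p, the 22 to 24 nt forms of miR-423-5p and the end adenosine and shifted forms of miR-191a-5p were called, while the main exact forms of miR-320-3p and miR-191a-5p were not.

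Other miRNAs that are often reported in vesicles were called about as often as all tested arms. Of 20 listed, 19 were tested, of which 7 were higher, 5 lower and 7 not called, against 41.4% higher and 22.6% lower over all arms, with a median log2 fold change of -0.18 against 0.68 over all tested arms. let-7b-5p, a repressor of growth genes, was 5.59-fold higher, and miR-92a-3p of the miR-17 to miR-92 cluster 3.91-fold higher. miR-451-5p, a red cell miRNA that is made without Dicer, was 8.53-fold lower, and miR-16-5p, a common reference in plasma, 2.98-fold lower. GGAG, a motif linked to vesicle loading, was in 0 of the 7 member sequences and in 8.09% of 692 RefSeq rat mature sequences. CCCU, linked to loading likewise, was in miR-484-3p and miR-423-3p and in 9.39% of the RefSeq ones. A motif of 4 letters is a description of the sequence only.

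Patterns most like those of the members over the 6 libraries were found by the root-mean-square difference of centred log2 CPM among the annotated arms. For miR-320-3p these were miR-9a-5p (0.16), miR-146a-5p (0.18) and miR-27b-3p (0.20), where the median over 197 arms was 0.88. miR-191a-5p had miR-9a-5p, miR-186-5p and miR-27b-3p, each at 0.21. For miR-425-5p they were miR-34b-5p (0.11), miR-186-5p (0.13) and miR-598-3p (0.19), and for miR-423-5p miR-501-3p (0.25), miR-27a-3p (0.29) and miR-30e-5p (0.30). The nearest to miR-484-3p were miR-195-3p (0.66), miR-412-5p (0.71) and miR-130b-5p (1.02), where the median was 2.70. The members whose totals did not pass the test shared neighbours among them, and miR-423-5p and miR-484-3p had others. The measure includes the difference between the groups, so this in part repeats the fold changes and is no separate result.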

How the data were processed

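For every library the authors deposited raw counts of each distinct sequence by hairpin, per the file headers, together with where it aligned and any edits. The tools cutadapt 1.9.3 and Novoalign 3.02.12 appear in the submitters' processing notes with no role given, and the genome build is not given in the sources used here. The hairpin sequence of miR-320 is not reported here. The tables hold sequences of 16 to 40 nt with 2 or more reads and up to 1 edit.

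Counts were summed per arm, copies of a miRNA joined, with a sequence taken as 5p or 3p when its centre was before or after the midpoint of its hairpin. edgeR 4.0.16 (R 4.3.3; limma 3.58.1) was run with TMM scaling, filterByExpr (minimum count 10), robust quasi-likelihood dispersions and adjustment at 0.05, once over all arms and once over all sequences. DESeq2 1.42.0 was an alternative. The SE is the log2 fold change over the square root of F. For shares the exact two-sided permutation test was used (10 splits). Python 3.11.15, pandas 2.3.3, NumPy 2.4.6, SciPy 1.17.1 and matplotlib 3.10.9 were used. Scripts were tested on simulated data. Reads carry no molecular identifiers here, so count intervals cover counting error only.

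Members, lists and tests were chosen with earlier results of these data known, and the test of use within an arm was added after the data were seen. All member arms are named, with sequences that hold 5% or more of an arm in a group or are its most abundant shifted form. Not every sequence at 5% or more is described. Named after their values were seen were the 18 and 19 nt forms of miR-423-5p and its 21 and 24 nt end-adenosine forms. The 19 nt form of miR-423-3p and the 25 nt form of miR-320-3p were as well. So were the 18 nt form of miR-191a-5p and the 22 nt form of miR-423-5p that starts 1 base later. As alternatives the scaling, the filter, the test or the set of sequences was changed, counts were thinned, a replicate block was added, or each library was left out. Replicates differed by more than counting noise (chi-square per degree of freedom 4.19 to 101), and none was counted as a repeat.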

Additional observations from a re-analysis of the deposited data

How the results depend on the processing

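Depth limits the low glucose libraries most, where miR-484-3p and miR-191a-3p have 5 and 2 counts. Upper quartile scaling turned miR-320-3p into a call at -0.61 on the log2 scale and ended that of miR-423-5p at 0.51, and under it 91 arms were higher and 93 lower, against 123 and 67. Arms called higher came to 64 of 159 tested when thinned to the smallest library and 78 of 201 with annotated hairpins only. Leaving out 1 library gave 79 to 117 higher arms, lowest without high glucose replicate 2, and 41 to 59 lower ones, lowest without low glucose replicate 2. It gave 0.76 to 1.30 for miR-423-5p, 1.36 to 1.62 for miR-423-3p, 3.77 to 10.54 for miR-484-3p and 4.35 to 9.76 for miR-191a-3p, all still called. High minus low glucose differences of shares moved with some settings. With exact alignments only, that of the main miR-320-3p sequence was -4.24 in place of -9.87 percentage points and that of the miR-191a-5p arm -3.33 in place of -4.26. Thinned, the latter was -2.17, that of the main miR-191a-5p start -5.31 in place of -8.07, and that of the miR-425-5p arm 0 in place of -0.69. Deviations of same-numbered libraries correlated at 0.0449, -0.000712 and -0.0285, and not every library correlated best with its own number. With 3 libraries per group this cannot tell whether the replicate numbers pair the libraries. With a replicate block 104 arms were higher and 58 lower, miR-423-5p was at 1.05, miR-423-3p at 1.49, miR-484-3p at 4.57 and miR-191a-3p at 4.92, and no member arm changed its call, while the 24 nt end-uridine form of miR-320-3p (adjusted p = 0.0725) and the 22 nt form of miR-423-3p that starts 1 base earlier (0.0815) lost theirs. Single sequences were refitted with upper quartile scaling, DESeq2, the block and without each library, and their use within the arm without each library. Of these values 405 stayed on their side of the threshold, called or not, while 21 lost a call and 10 gained one.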

Other observations

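Raw counts of miR-320-3p in low glucose, 1827, 1849 and 1807, varied little, with a variance over mean of 0.241, although the library totals differed 1.29-fold. With 3 libraries this value cannot show that the variation is below counting noise. Among the 69 arms with a mean of 100 or more low glucose counts, 2 had a lower value, and the median was 12.7. In high glucose the value for miR-320-3p was 1254, against a median of 144.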
